A study of Mus musculus with 8 samples.

Results

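Respiratory complex I, or NADH:ubiquinone oxidoreductase, is the entry point of electrons from NADH into the respiratory chain of mitochondria, and its nuclear-encoded subunits are described here in germinal centre (GC) B cells with high or low MYC. The genes were chosen by symbol, as those that start with Ndufa, Ndufb, Ndufc, Ndufs or Ndufv followed by a digit, together with Ndufab1. This gave 36 of the 18193 genes that have a probe set of their own on the array. A total of 35 of them were among the 11754 genes over the signal filter and were tested, and Ndufb4, with signals between 1.798 and 12.7 on its own probe set, was not. The rule itself used no measured value, but it was set with earlier results of these data known.

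Both groups came from spleens of 8-week-old GFPMYC/C57BL6 mice, a knock-in in which MYC is read as GFP, 12 days after immunization with sheep red blood cells (SRBC). All groups therefore share the knock-in allele, the strain and the immunization. B cells were isolated with magnetic beads, PNAhi/CD95hi cells (strong binding of peanut agglutinin and high CD95, the usual gate for GC B cells) were sorted, and GFP parted them into MYC-positive and MYC-negative cells, with 4 samples of each. Amplified cDNA from 5 to 20 ng of RNA was read on 8 Affymetrix Mouse 430 2.0 arrays, and the sample descriptions name the partner of each sample, which gives 4 pairs. The protocol speaks of a sort for each mouse and the design text of pooled cells, so whether a pair is 1 animal is not settled. The sample titles call each sample a biological replicate. If the pairs were drawn from a shared pool, the p-values would reflect technical spread between samples alone. The comparison addresses how GC B cells that hold MYC differ from those that do not.

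Complex I is shaped like an L. Its matrix arm holds the N module, which takes electrons from NADH, and the Q module, which passes them along iron-sulfur clusters to ubiquinone, while the membrane arm pumps protons and is described by its proximal and distal parts. The core subunits that carry out catalysis are shared with bacteria, some encoded in the nucleus and the rest in mitochondrial DNA, and the remaining accessory subunits surround them. GC B cells divide fast and rely in part on oxidative phosphorylation, and MYC is known as a regulator of genes for growth and for mitochondrial production. The mitochondrial subunit genes, with 0 measured, were not analysed here, and Ndufs6 and Ndufa11 are only on probe sets that name several genes.

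The arrays shared about the same mean signal after trimming 2% at each end (496.8 to 498.0), and 34.7% to 42.7% of the probe sets had a signal over 100. Myc had signals of 33.3, 156, 105 and 137 in the MYC-negative samples of pairs 1 to 4 and of 361, 932, 644 and 891 in the MYC-positive samples. The groups did not overlap, and the difference was 2.83 on the log2 scale (SE 0.28, n = 4 pairs, limma adjusted p = 0.00069). The cells were sorted on MYC, so this checks the labels and is no finding.

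Nearly the whole set of complex I genes lay on the side of the MYC-positive cells. Of the 35 genes tested, 15 (42.9%) were higher in the MYC-positive group in limma's paired fit over all genes (adjusted p under 0.05), against 11.2% of all genes tested. None of the members (0) was lower by limma, against 11.5% of all genes, and at an unadjusted p under 0.05 the lower share was also 0, against 19.2% of all genes. The differences, given throughout on the log2 scale with positive values where MYC-positive cells had more, had a median of 0.46 and ran from -0.27 for Ndufb1 to 1.05 for Ndufab1, while the median of all genes was -0.063. A difference above 0 was found for 34 of the 35, against 5393 of the 11754 genes tested. All 4 pairs had the higher value in the MYC-positive sample for 23 members (65.7%), against 19.3% of all genes, and the 4 MYC-positive values lay above all 4 MYC-negative values for 6 (17.1%), against 11.1% of all genes.

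The count of calls varied with the samples and the fit. Leaving out pair 1 or pair 2 left 1 call among the 35 members (2.86%), Ndufab1, where 3.43% and 3.87% of all genes were called higher, and so did a fit without the intensity trend, where 6.26% of all genes were, so that in these 3 fits the members' share of calls was not above that of all genes. The fit without the pair as a block called 5 (14.3%, against 8.98% of all genes). Quantile normalization called 14 (40%, against 15.2% of all genes), with medians of 0.43 for the members and 0.087 for all genes. Centring each array on its median signal, which moves every gene by the same amount, called 32 (91.4%, against 27.3% of all genes), with medians of 0.90 and 0.38.

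**Figure D1:**
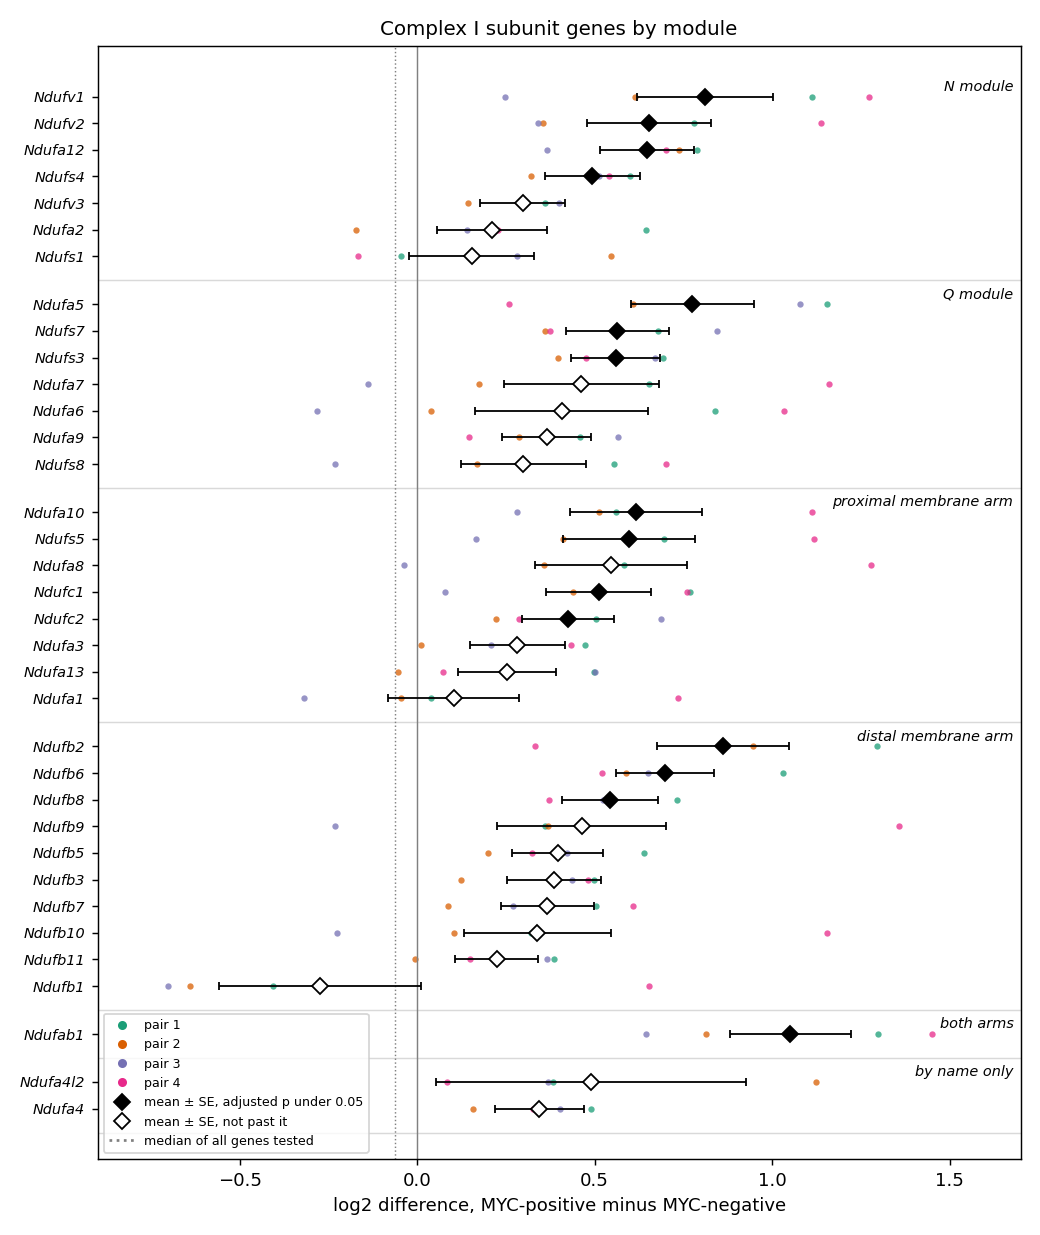
Log2 difference between MYC-positive and MYC-negative samples for each of the 35 complex I genes tested, with the SE of the paired limma fit and the 4 single pairs as small points. The differences run from -0.27 (Ndufb1) to 1.05 (Ndufab1), and 15 genes passed an adjusted p under 0.05, all of them higher.

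Most complex I genes lie in a range of signal where calls were more frequent, so the count was also read against genes of like signal. Between 11 and 13 on the log2 scale of mean signal there were 2232 genes, of which 19.2% were called higher, with a median difference of 0.042. The 28 complex I genes in that range had 14 called higher (50%) and a median of 0.48. Below it, 1 of 5 complex I genes was called higher (20%, against 9.31% of the genes there). Above it, 0 of 2 were (against 10.6%).

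**Figure D2:**
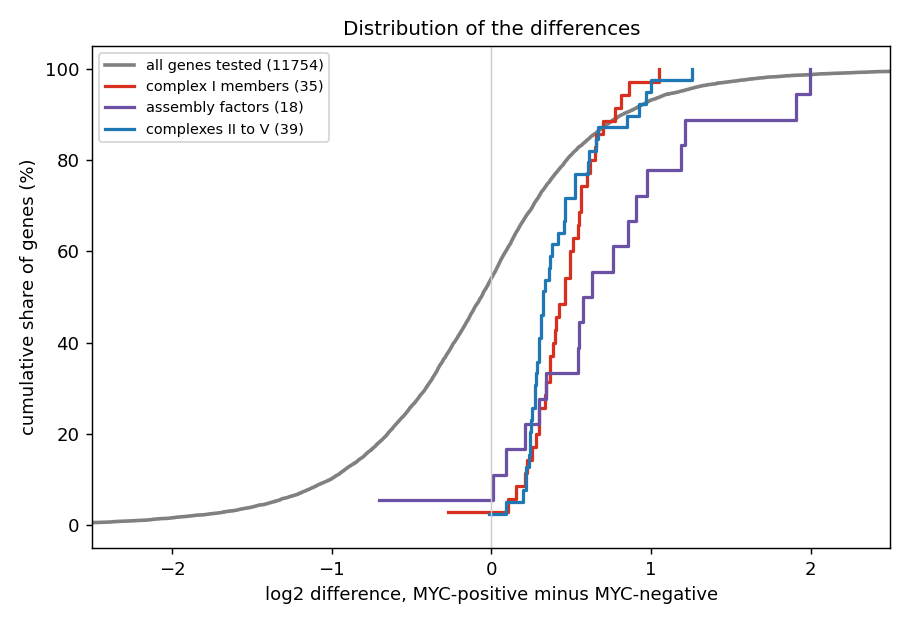
Cumulative share of genes in percent (vertical) against the log2 difference (horizontal), for all 11754 genes tested, the 35 complex I genes, 18 assembly factors and 39 genes of complexes II to V. The line of the complex I genes lies to the right of that of all genes, with medians of 0.46 and -0.063.

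The promoters are shown next because the cells were parted by the level of a transcription factor. RefSeq promoters of GRCm38.p6, from 250 bases before to 50 after a start site, matched 32 of the 36 genes, among them all 15 that were called. The E-box CACGTG, the sequence that MYC binds with its partner MAX, reads the same on both strands. It was found in the promoters of 2 of the 32, Ndufv1 and Ndufa7 (6.25%), against 7.15% of all 32851 promoters and 11.7% of the 9544 tested genes with a promoter. The members are counted by gene, so for each motif the share of tested genes is the like comparison. The Ndufv1 match begins 169 bases before the start site, and the Ndufa7 match 72 or 145 bases before its start sites. The stretches around them, with the E-box in capitals, lie at chr19:4012859-4012984 on the minus strand and at chr17:33824440-33824565 on the plus strand.
Ndufv1: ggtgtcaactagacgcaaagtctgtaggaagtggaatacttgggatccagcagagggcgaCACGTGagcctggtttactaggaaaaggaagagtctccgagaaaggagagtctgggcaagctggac
Ndufa7: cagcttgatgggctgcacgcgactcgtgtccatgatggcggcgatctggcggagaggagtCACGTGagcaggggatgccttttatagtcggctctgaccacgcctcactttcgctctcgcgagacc

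The motif AAGATGGC, the core of the sequence bound by YY1, was the most frequent of the 4 motifs searched on both strands in these promoters. It was found in 6 of the 32 (18.75%), 4 of them among the 15 called, against 2.75% of all promoters and 5.45% of tested genes with a promoter. Its 6 promoters are not those with an E-box, and each match begins 23 to 39 bases after the start site. The windows are printed because they show this common place, with the motif in capitals. The motif holds the letters ATG of a start codon, and whether the matches are translation starts or YY1 sites was not tested. They lie at chr10:80249462-80249491 (plus), chr19:44555393-44555415 (minus), chr3:51408915-51408944 (minus), chr13:114388045-114388070 (minus), chr7:3617384-3617413 (plus) and chr6:126849097-126849126 (minus), in the order given.
Ndufs7: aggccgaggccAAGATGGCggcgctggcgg
Ndufb8: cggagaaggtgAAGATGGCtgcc
Ndufc1: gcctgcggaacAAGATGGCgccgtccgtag
Ndufs4: ttgcctacaggAAGATGGCggcggtc
Ndufa3: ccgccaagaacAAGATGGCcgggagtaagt
Ndufa9: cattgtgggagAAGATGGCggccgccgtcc
The NRF1 motif GCATGCGC was found in Ndufa6 and Ndufa8, 2 of the 32, against 2.71% of all promoters and 5.96% of tested genes, and the ETS motif CCGGAAGT in 1, Ndufs3, against 3.89% and 9.20%. The other motifs have different letters on the 2 strands and both were searched. A match describes the letters and is no measured binding.

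Among the subunits of the N module, 4 of 7 measured were higher (57.1%) and 0 lower, with a median difference of 0.49. For this and the other modules, the shares over all genes tested were 11.2% higher and 11.5% lower. Ndufv1 encodes the flavoprotein that binds NADH and takes its electrons. Its signals were 2157, 2482, 2043 and 1633 in the MYC-negative samples of pairs 1 to 4 and 4664, 3797, 2428 and 3949 in the MYC-positive ones. The MYC-positive sample of pair 3 lies inside the MYC-negative range and the other 3 lie above it, with a difference of 0.81 (SE 0.19, adjusted p = 0.018). Ndufv2, the neighbouring iron-sulfur subunit, had MYC-negative signals of 2090, 2457, 2171 and 2142 and MYC-positive signals of 3587, 3143, 2751 and 4710. Its groups did not overlap (0.65, SE 0.17, adjusted p = 0.028). Ndufs1, the largest subunit of the complex and the carrier of several iron-sulfur clusters, gave 1705, 1555, 1785 and 1739 in MYC-negative against 1654, 2269, 2170 and 1550 in MYC-positive samples. Pairs 2 and 3 had the higher value in the MYC-positive sample and pairs 1 and 4 the lower, and the difference did not pass (0.15, SE 0.18, adjusted p = 0.57).

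The accessory subunits of the N module differed among themselves as well. Ndufa12, which takes part in joining the N module to the rest of the arm, had signals of 3585, 3900, 4821 and 4242 in MYC-negative and of 6193, 6497, 6209 and 6901 in MYC-positive samples, without overlap (0.65, SE 0.13, adjusted p = 0.010). Another probe set of this gene gave the opposite sign, as described with the probe sets. Ndufs4, a late-joining subunit whose loss in mice gives a fatal brain disease, had MYC-negative signals of 2411, 2933, 2660 and 4058 and MYC-positive signals of 3655, 3663, 3795 and 5902. The sample of pair 4 was the highest of each group, so that the groups overlapped, while each pair was higher in MYC-positive (0.49, SE 0.13, adjusted p = 0.029). Ndufv3 and Ndufa2 had differences of 0.30 (adjusted p = 0.11) and 0.21 (adjusted p = 0.37) and did not pass.

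In the Q module 3 of 7 subunits were higher (42.9%, against 11.2% of all genes) and 0 lower, with a median difference of 0.46. Ndufs3 is a core subunit of the module on which assembly of the arm begins. It had signals of 4129, 4881, 3945 and 5633 in MYC-negative and of 6670, 6430, 6281 and 7829 in MYC-positive samples. Every MYC-positive value lay above every MYC-negative value (0.56, SE 0.13, adjusted p = 0.015). Ndufs7, which holds the last iron-sulfur cluster before ubiquinone, had 2607, 3529, 2440 and 3938 in MYC-negative and 4169, 4529, 4385 and 5104 in MYC-positive samples. Here too the groups did not overlap (0.56, SE 0.15, adjusted p = 0.024).

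Ndufs8, the core subunit that carries the clusters before that of Ndufs7, had 3358, 3807, 3603 and 3258 in MYC-negative and 4935, 4280, 3070 and 5299 in MYC-positive samples. Pair 3 had the lower value in the MYC-positive sample and the gene did not pass (0.30, SE 0.18, adjusted p = 0.26). Ndufa5, an accessory subunit of this module, had the largest difference within it, with 2590, 3298, 3124 and 6825 in MYC-negative and 5772, 5027, 6598 and 8166 in MYC-positive samples. The MYC-negative sample of pair 4 was above 3 of the MYC-positive values, and all 4 pairs were higher in MYC-positive (0.78, SE 0.17, adjusted p = 0.014). The others, Ndufa6 (0.41), Ndufa7 (0.46) and Ndufa9 (0.36, the subunit that holds a bound NADPH), had adjusted p-values of 0.27, 0.16 and 0.068. Of the 6 core subunits measured over the N and Q modules, 4 were higher, namely Ndufv1, Ndufv2, Ndufs3 and Ndufs7, and their median difference was 0.56.

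**Figure D3:**
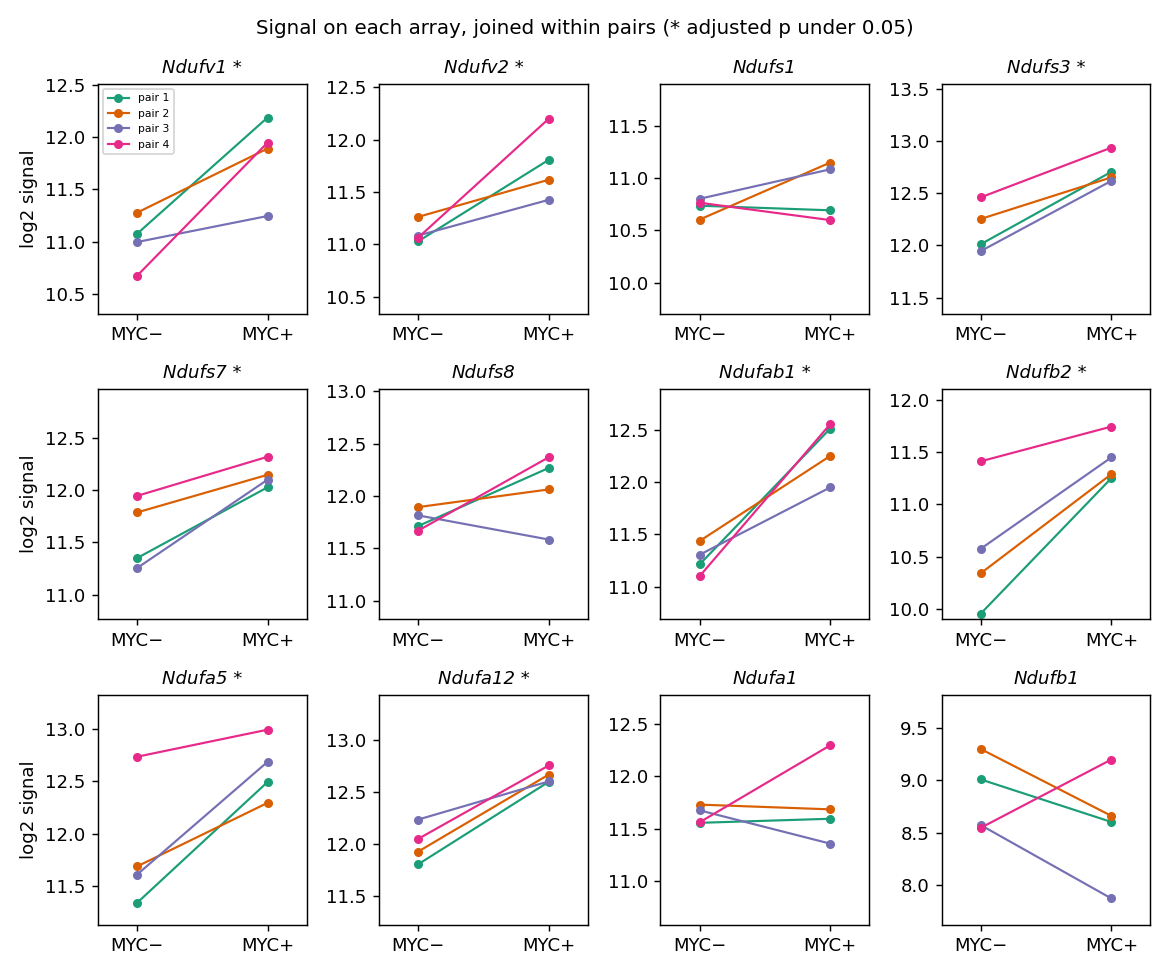
Log2 signal on each array of 12 complex I genes whose values are given in the text, with an axis of the same height centred on each gene and a line joining the MYC-negative and MYC-positive sample of each of the 4 pairs. The lines of Ndufab1, Ndufs3 and Ndufa12 rise in all 4 pairs with no overlap of the groups, while those of Ndufs1 and Ndufb1 run both ways.

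The proximal membrane arm had 4 of 8 subunits higher (50%, against 11.2% of all genes) and 0 lower, with a median difference of 0.47. Ndufa10, which has the fold of a nucleoside kinase, had signals of 1327, 1480, 1226 and 838 in MYC-negative and of 1956, 2110, 1490 and 1813 in MYC-positive samples. The lowest MYC-positive value, of pair 3, was just above the highest MYC-negative value, of pair 2 (0.62, SE 0.19, adjusted p = 0.043). Ndufs5, a small subunit on the side of the intermembrane space, had 1691, 1982, 1669 and 1650 against 2742, 2636, 1873 and 3581. Its MYC-positive sample of pair 3 lay within the MYC-negative range (0.60, SE 0.19, adjusted p = 0.048).

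Ndufc1 and Ndufc2, both small membrane subunits, were higher by 0.51 (adjusted p = 0.037) and 0.42 (adjusted p = 0.045). Ndufa1, a membrane-spanning subunit whose gene is X-linked, had 3008, 3394, 3268 and 3018 in MYC-negative and 3090, 3289, 2621 and 5026 in MYC-positive samples. Pairs 1 and 4 were higher in MYC-positive and pairs 2 and 3 lower, and the gene did not pass (0.10, SE 0.18, adjusted p = 0.73). Ndufa3, another small membrane subunit, had 4614, 5615, 4842 and 5697 against 6409, 5660, 5597 and 7694. Its groups overlapped (0.28, SE 0.13, adjusted p = 0.17). Ndufa8 (0.55, adjusted p = 0.10) and Ndufa13 (0.25, adjusted p = 0.22), the latter also known as a regulator of cell death, did not pass.

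In the distal membrane arm 3 of 10 subunits tested were higher (30%, against 11.2% of all genes) and 0 lower. The median difference was 0.39, the lowest median of the 4 modules. Whether the modules differ was not tested. Ndufb2, a small accessory subunit, had signals of 993, 1298, 1527 and 2726 in MYC-negative and of 2437, 2503, 2797 and 3431 in MYC-positive samples. The MYC-negative sample of pair 4 was far above the others of its group and inside the MYC-positive range (0.86, SE 0.18, adjusted p = 0.012). Ndufb6, also an accessory subunit of this arm, had 2824, 3052, 4060 and 5248 against 5769, 4591, 6372 and 7531, and only this MYC-negative sample of pair 4 overlapped the other group (0.70, SE 0.14, adjusted p = 0.0093). Ndufb8, whose protein is widely used on blots as a sign of assembled complex I, had 2421, 2688, 2998 and 4804 against 4024, 3912, 4313 and 6219. It was higher in all 4 pairs (0.54, SE 0.13, adjusted p = 0.021).

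Ndufb1 was the only member of the 35 with a difference below 0. Its signals were 515, 631, 381 and 374 in MYC-negative and 389, 405, 234 and 588 in MYC-positive samples. Pairs 1 to 3 were lower in MYC-positive and pair 4 was higher, and the gene did not pass (-0.27, SE 0.28, adjusted p = 0.53), with a difference of 0.17 when arrays were centred on their medians. The other 6, Ndufb3, Ndufb5, Ndufb7, Ndufb9, Ndufb10 and Ndufb11, had differences from 0.22 to 0.46 and adjusted p-values from 0.056 to 0.28.

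Ndufab1 had the largest difference of all members. It encodes the acyl carrier protein of mitochondria, which sits in both arms of complex I and also serves mitochondrial fatty acid synthesis and the making of iron-sulfur clusters. Its signals were 2373, 2771, 2530 and 2195 in MYC-negative and 5835, 4870, 3953 and 6008 in MYC-positive samples, a 2.07-fold difference of the geometric means. The groups did not overlap (1.05, SE 0.17, adjusted p = 0.0042).

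A pair of genes carry the family name without being subunits of complex I today. Ndufa4 is now counted to complex IV, and its difference was 0.34 (adjusted p = 0.082). Its paralog Ndufa4l2, known as a gene induced by low oxygen, was near the lower end of the measured range, with 18.4, 18.96, 21.6 and 37.8 in MYC-negative and 24.0, 41.3, 27.9 and 39.98 in MYC-positive samples. The groups overlapped widely (0.49, SE 0.44, adjusted p = 0.46). Without both, 15 of 33 genes were higher (45.5%, against 11.2% of all genes).

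The 4 pairs did not contribute alike. In pair 1, 33 members were higher in the MYC-positive sample, with a median difference of 0.58, and in pair 4, 34 were, with a median of 0.52. Pair 2 had 30 higher with a median of 0.32. In pair 3 there were 27 higher with a median of 0.36, and the 8 lower ones were Ndufa1, Ndufa6, Ndufa7, Ndufa8, Ndufb1, Ndufb9, Ndufb10 and Ndufs8. The medians of all genes in pairs 1 to 4 were 0.026, -0.058, -0.20 and 0.0030, so pair 3 was also the pair with the lowest value over all genes. The distance between the lowest and highest of the 4 pair differences of a member had a median of 0.71 and ran from 0.26 to 1.59.

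Several members are read by more than 1 probe set. Of 78 probe sets of the members, 75 were over the filter, 20 members had another beside the brightest, and 15 had only 1. Of the 40 others, 30 had the sign of the probe set used and 10 had the opposite sign, in Ndufa12, Ndufa3, Ndufab1, Ndufb2, Ndufb8, Ndufs4 and Ndufs8. The 10 had geometric mean signals of 41.2 to 639 in MYC-negative samples. The probe sets used for these 7 members had 1522 (Ndufb2) to 5170 (Ndufa3). Whether low signal bears on the sign was not tested. The clearest case was Ndufa12, where the other probe set had signals of 123, 73.5, 119 and 37.2 in MYC-negative and 12.2, 22.8, 9.30 and 2.38 in MYC-positive samples. On it the groups did not overlap in the opposite direction, with a difference of -3.17 (SE 0.53), and most of its MYC-positive signals are under the filter of 18.7. For Ndufab1 the opposite ones had -0.72, -0.68 and -0.08, for Ndufs4 -1.01 and -0.21, for Ndufb8 -0.73, for Ndufb2 -0.67, for Ndufs8 -0.62 and for Ndufa3 -0.14. With the mean over all probe sets of a gene in place of the brightest, 11 members were called (31.4%, against 9.93% of all genes). Of these, 8 were among the 15. The 7 that lost their call were Ndufab1 (0.15), Ndufa12 (-0.27), Ndufb8 (-0.096), Ndufs4 (-0.060), Ndufb2 (0.33), Ndufa10 (0.43) and Ndufc1 (0.61).

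**Figure D4:**
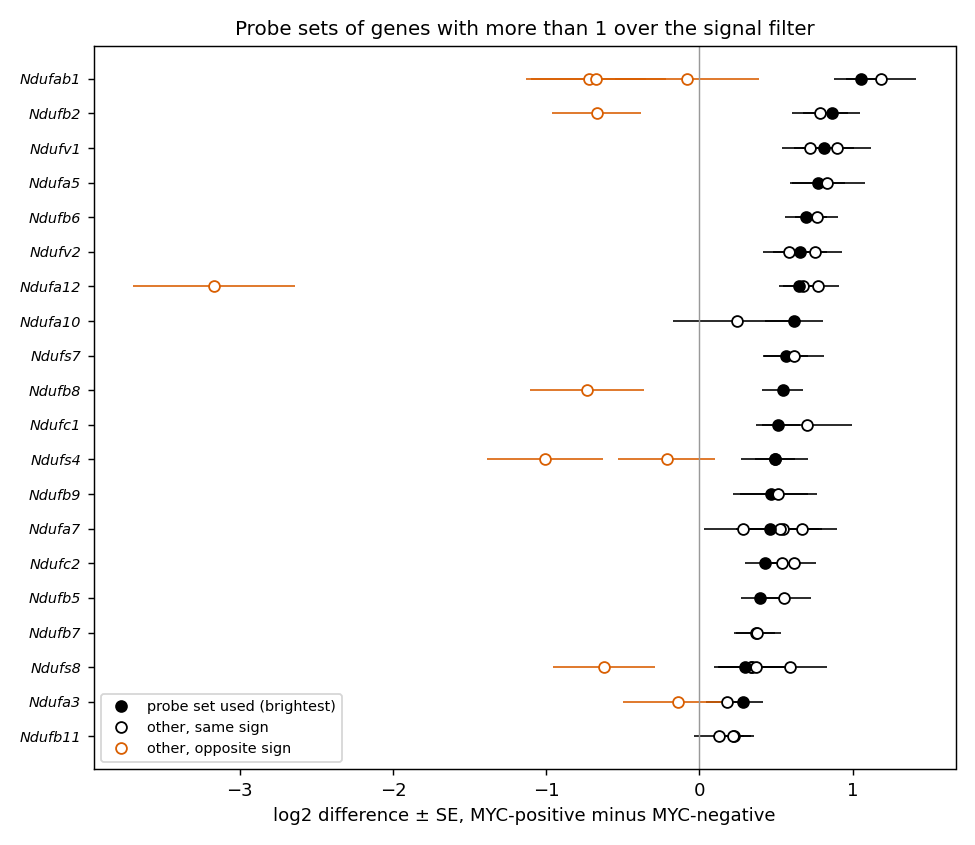
Log2 difference with its SE of each probe set over the filter, for the 20 complex I genes with more than 1. Filled points are the brightest probe set used for the gene, open points are others, and the 10 of opposite sign are in orange, the farthest at -3.17 for Ndufa12.

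Assembly factors are proteins that build complex I and are not part of the finished enzyme. Of 18 measured, 9 (50%) were higher and 0 lower at the adjusted threshold, against 11.2% and 11.5% of all genes. Dmac2 alone had an unadjusted p below the threshold on the lower side (1 gene, 5.56%, against 19.2% of all genes). The median difference of the list was 0.60. Ndufaf6, needed at an early step of assembly, had 69.0, 104, 84.8 and 133 in MYC-negative and 326, 326, 346 and 553 in MYC-positive samples. Ndufaf4 had 528, 656, 737 and 570 against 1744, 2427, 2634 and 2613. Both genes had groups that did not overlap, with differences of 1.99 (SE 0.28, adjusted p = 0.0024) and 1.91 (SE 0.17, adjusted p = 0.00053). The other 7 that rose were Ndufaf2 (1.21), Ecsit (1.19), Tmem70 (0.98), Nubpl (0.90, which delivers iron-sulfur clusters to the complex), Ndufaf7 (0.86), Ndufaf5 (0.76) and Timmdc1 (0.55). Without pair 1 the list had 2 called, where 3.43% of all genes were called higher, and without pair 2 also 2, where 3.87% were.

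Genes of the other complexes of oxidative phosphorylation were called higher as well, and no difference between them and complex I was tested. Over complexes II to V, 12 of 39 genes were higher (30.8%, against 11.2% of all genes) and 0 lower, with a median of 0.33. Without pair 1 the count was 0, without pair 2 it was 3, and after median centring it was 37. In these 3 fits 3.43%, 3.87% and 27.3% of all genes were called higher. Complex II, which feeds electrons from succinate, had 1 of 4 higher (Sdhd, 1.00). Complex III, which takes electrons from ubiquinol, had 6 of 9 higher, led by Uqcr11 (0.97) and Uqcrq (0.92) and including Cyc1, its cytochrome (0.85). Complex IV, the terminal oxidase, had 0 of 9 higher in limma's fit. At an unadjusted p under 0.05 it had 3, where 1996 of the 11754 genes tested were higher. Its median of 0.25 became 0.093 after quantile normalization, with 0 called where all genes had a median of 0.087. After median centring the complex IV median was 0.69, with 7 called. ATP synthase, complex V, had 5 of 17 higher, namely Atp5g1 (1.26), Atp5b (0.66), Atp5md (0.61), Atp5l (0.46) and Atp5c1 (0.46).

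Genes that supply complex I moved as follows, where 11.2% of all genes tested were called higher and 11.5% lower. Of 11 genes for iron-sulfur cluster assembly, 4 were higher, namely Hspa9 (1.23), Bola3 (0.81), Glrx5 (0.78) and Nfu1 (0.58), and 0 lower. Of 12 genes for the synthesis of coenzyme Q, the acceptor of the electrons, Coq4 (1.67), Coq7 (1.26), Coq5 (0.81) and Pdss2 (0.68) were higher and Coq10a (-0.89), a coenzyme Q binding protein, was lower, a call that neither quantile normalization nor median centring made. Each of these lists had 1 gene called higher without pair 1 and 1 without pair 2, where 3.43% and 3.87% of all genes were. Of 12 regulators of mitochondrial production only Pprc1, a coactivator of the PGC-1 family, was higher (1.00). This is 8.33% of the list, near the 11.2% of all genes. The list median of 0.058 was -0.016 after quantile normalization. Of 10 control genes of wide expression, 1 was higher (Gusb, 0.79), or 10%, also near the 11.2% of all genes, with a list median of 0.29. After quantile normalization 3 were higher, where 15.2% of all genes were, and after median centring 9, where 27.3% were. Neither list had a call without pair 1 or pair 2. The control genes also had a median above that of all genes, in each scaling. In the fit as reported all 10 control genes had a difference above 0. So did 38 of 39 genes of complexes II to V and 17 of 18 assembly factors. Sdha is counted both among the control genes and in complex II.

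**Figure D5:**
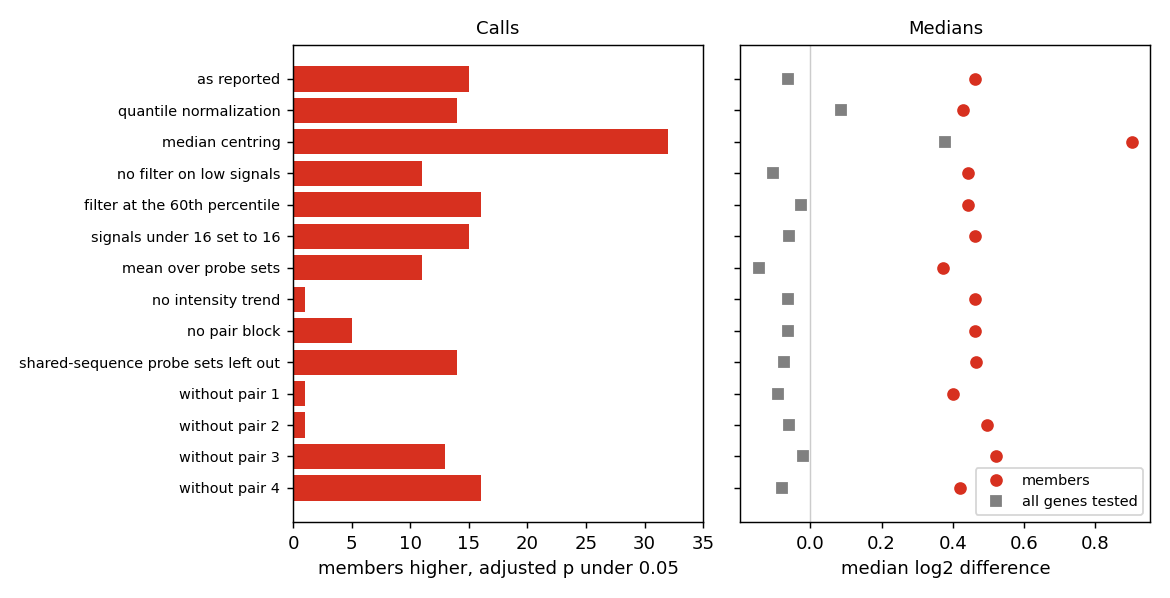
Number of complex I genes called higher, and median log2 difference of the complex I genes and of all genes, under each processing setting. The count is 15 as reported and lies between 1 and 32, while the median of the complex I genes lies above that of all genes in every setting shown.

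The label of the cells was checked against markers. All 6 B cell markers and all 6 GC markers measured were over the filter in the gene test, with 0 higher in each and 2 lower in each, Cd22 (-0.63) and Pax5 (-1.75) among the first and Mybl1 (-2.13) and Fas (-0.61) among the second. Markers of macrophages and monocytes moved with the MYC-positive group: of 15 on the array 13 were over the filter, 9 were higher, led by Csf1r (6.40) and Vcam1 (5.98), and 1, Apoe (-1.87), was lower, with a median of 3.40. Their summed signal was 887 to 2399 in MYC-negative and 2987 to 13390 in MYC-positive samples, the highest in pair 1 and the lowest in pair 3, and their part in the complex I result was not tested. Cd14 and Marco were under the filter. Of the T cell markers 1 of 7 was over the filter (summed signal 57.8 to 152 against 49.99 to 117), with Cd3d, Cd3e and Cd3g under it, and of the granulocyte markers 1 of 7 (47.7 to 131 against 55.7 to 603). Of the NK cell markers 1 of 5, of the dendritic cell markers 3 of 5 and of the red cell markers 0 of 3 were over it, with 0 called. The plasma cell list had 4 of 5 over it, with Sdc1 higher (2.02). In such sorted bulk samples fewer cells of a type and less RNA per cell cannot be told apart.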

How the data were processed

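RNA of 4 MYC-positive and 4 MYC-negative samples was measured on arrays. The deposited values are signal intensity on a linear scale, 1 value per probe set, and the submitters' processing notes name MAS5. The sources used here do not give the MAS5 version or its scaling target. The number of arrays limits the precision. Genes came from the platform annotation (34945 of 45056 probe sets with 1 gene, 932 with several, 9160 with none named, 19 controls), and only probe sets of 1 gene were used. The files name no genome build, so promoter positions are those of RefSeq's GRCm38.p6 table.

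Log2 was taken of the signal, with values under 1 raised to 1. Probe sets over the 40th percentile of mean log2 signal (18.7 as signal) were kept, and the brightest of a gene's probe sets stood for it. limma 3.58.1 in R 4.3.3 (lmFit, eBayes with an intensity trend) fitted the group with the stated pair as a block, on 3 residual degrees of freedom. P-values are 2-sided and adjusted by Benjamini-Hochberg over all 11754 genes. With 4 pairs an exact sign-flip p is at least 0.125, so none was computed. Partners' deviations from their group means correlated at 0.26, 0.17, 0.088 and 0.12 for pairs 1 to 4. Of the combinations that are no stated pair, the highest were 0.30, 0.21 and 0.10. No stated pair lay above 0.30, and pairs 2, 3 and 4 lay below 0.21 as well. The value of 0.30 joins the MYC-negative sample of pair 4 and the MYC-positive sample of pair 3. The pairs rest on the descriptions.

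Values on every array are given for Myc, the core subunits, the 10 largest called members, the 4 with the highest adjusted p, and members with a probe set of opposite sign. In other lists the 2 largest called genes are named, and any gene where a count is 5 or fewer. The others were named after their values were seen, and array values of Ndufaf4 and Ndufaf6 likewise. Members, modules and lists were chosen with earlier results of these data known. The fit was also run on data simulated from the same paired model, which cannot test the choice of trend, block or pairs. Alternatives were other scaling, filters, floor, probe set rule, variance model, no block and each pair left out.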

Additional observations from a re-analysis of the deposited data

Results flagged for a closer look

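Of 40 groups of 4 samples tested for a sample far from the others, 2 stood out, and chance gives about 1 in 20. For Ndufs4 the MYC-positive sample of pair 4 had a log2 signal of 12.53 against 11.84 to 11.89 in the other 3, a gap of 0.922 of the group's range, beyond Dixon's limit for 4 samples. For Ndufs5 the MYC-negative sample of pair 2 had 10.95 against 10.69 to 10.72, a gap of 0.866 of the range. Ndufs4 had its highest value in pair 4 in the MYC-negative samples as well, and its difference lost its call without pair 1, 2 or 3 and kept it without pair 4. The Ndufs5 difference was 0.66 without pair 2 and lost its call there, as it did without pair 1 and, at 0.43, without pair 4.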

How the results depend on the processing

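Centring each array on its median called 32 complex I genes higher, with a median of 0.90, 14 assembly factors and 37 genes of complexes II to V, with 3204 genes higher and 546 lower in all; 85.4% of its calls were higher, against 49.4% as deposited and 57.2% after quantile normalization. Without the intensity trend the counts were 1 complex I gene, 2 genes of complexes II to V, 736 higher and 771 lower. Without the pair as a block they were 5, 7 and 901 lower. Leaving out a pair in turn gave 1 to 16 complex I genes (1 without pair 1 or pair 2), 2 to 10 assembly factors, 0 to 15 genes of complexes II to V, 403 to 1742 genes higher and 352 to 2036 lower. An alternative chosen after seeing the data left out probe sets that share sequence between transcripts (suffix _s_at or _x_at). It called 14 higher (42.4%, against 11.0% of all genes) and 1 lower, Ndufa12 at -3.17. It had no probe set for Ndufa2 and Ndufa13. The mean over probe sets turned Ndufa12 to -0.27, Ndufb8 to -0.096 and Ndufs4 to -0.060. With a pair left out Ndufa1 ran from -0.11 (pair 4) to 0.24 (pair 3), against 0.10 with all pairs, and Ndufb1 0.17 after median centring. The cause of these changes was not tested. Ndufa4l2 was not over the 60th percentile filter. Quantile normalization called 14 complex I genes (40%, against 15.2% of all genes) and the 60th percentile filter 16 (47.1%, against 15.1%). No filter called 11 (30.6%, against 6.49%) and a floor of 16 called 15 (42.9%, against 12.2%). The call and sign of Ndufab1 were kept in 12 of 13 alternatives and lost with the mean over probe sets. Assembly factors called higher were 9 with the block and 7 without it. Low signals limit what the dim probe sets show.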

Other observations

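Complex I genes that share probe sets with near-identical copies were not tested as members, and their values stand apart here. The probe set that names Ndufs6, an N module subunit, and its copy Ndufs6b had signals of 2573, 3087, 2667 and 3831 in MYC-negative and 4722, 4389, 3831 and 6298 in MYC-positive samples, higher in all 4 pairs (0.66, SE 0.14). Both probe sets that name Ndufb4, a distal arm subunit, with Ndufb4b and Ndufb4c were higher in all 4 pairs as well, with differences of 0.58 (SE 0.13) and 0.57 (SE 0.17). For Ndufa11, of the proximal arm, with its copy Ndufa11b, the brighter probe set had 0.38 (SE 0.18) and the dimmer, with signals of 22.9 to 50.4, had -0.20 (SE 0.48). The probe set naming Ndufab1 and its pseudogene had 1.103 (SE 0.25), that naming Ndufs5 and its pseudogene 0.49 (SE 0.18), and that naming Ndufb2 and Adck2 0.47 (SE 0.43). These values cannot be split between the genes named.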
